A study of Drosophila melanogaster with 16 samples.

Results

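The expression of genes in hearts of *sei* mutant flies was compared with that in hearts of WtPE flies, the precise-excision strain that served as the control of the *KCNQ* mutant, to find the changes of *sei* hearts that were not tied to the choice of Canton-S (WtCS) as control. The comparison used 8 of the 16 arrays of the series, 5 of *sei* and 3 of WtPE, and all 18769 probesets that remained after the platform's own controls were left out. The 5 WtCS arrays, the strain in which the *sei* allele is kept, were set beside them, and the 3 *KCNQ* mutant arrays (labelled KCNQ37) entered the fit. The *sei* flies carried seits1, a chemically induced allele with a stop codon ahead of the membrane-spanning region. WtPE flies carry the label KCNQ97 and came from a w1118 stock in which the P element at *KCNQ* had left without a scar. The *sei* and WtPE flies therefore differ in strain background as well as at *sei*, which cannot be told apart within this comparison alone. All flies were untreated and 3 weeks old, and each array was made from 30 hearts. Fat and tracheae had been drawn off by suction, and which sex was used is not given in the sources used here. In such pooled tissue, fewer cells of a type and less RNA in each cell cannot be told apart.

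*sei* (*seizure*) encodes the fly homologue of the human hERG channel, a voltage-gated K+ channel that carries a rapid repolarizing current at the end of the cardiac action potential. Loss of hERG current in humans lengthens the QT interval and favours arrhythmia. The fly heart is a muscular tube of cardiomyocytes, flanked by pericardial nephrocytes and embedded in a basement membrane that also carries hemocytes.

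The arrays were close to one another in overall level, with a median intensity between 10.2 and 12.3 on the linear scale. They belonged to 3 number series in the array names of the study's data table, called runs A, B and C here. All WtPE arrays, *sei* replicates 4 and 5 and WtCS replicates 4 and 5 were of run A, and *sei* replicates 1 to 3 were of run C. Pairs of *sei* arrays correlated between 0.939 and 0.991 and pairs of WtPE arrays between 0.974 and 0.988 (Pearson, over probesets). The titles call the arrays biological replicates, but 2 sample codes recur among the *sei* arrays, so the p-values measure the spread between these arrays, which may in part be technical.

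The probeset of *sei* itself gave log2 intensities of 5.00, 4.76, 5.25, 5.19 and 3.89 in the 5 mutant arrays. In WtPE it gave 5.66, 5.45 and 6.08. Every mutant array lay below every WtPE array. The log2 difference was -0.91 ± 0.29 (SE of the fit; limma, adjusted p = 0.056), which missed the threshold of 0.05, and against WtCS it was -0.96 (adjusted p = 0.0212). *Hand*, a transcription factor of cardiac and pericardial cells, was bright in both groups, with a mean log2 intensity of 11.96 in *sei* and 12.24 in WtPE. None of 11 measured cardiac markers was called in either direction, and 6 of them had a mean below 5 on the log2 scale in each group. Their summed linear intensity was nevertheless lower in every *sei* array, at 4280 to 4930 against 5450 to 6360 in WtPE. Most of this sum came from *Hand*. In WtCS the sum was 4760 to 6680, which overlapped the *sei* range. The part of the difference from WtPE in the results was not tested.

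Male reproductive transcripts set single arrays apart. The summed linear intensity of 12 seminal fluid genes was 4240 in WtPE replicate 1 and 4920 in WtPE replicate 2, but 1550 in WtPE replicate 3. In the *sei* arrays the same sum ran from 1080 to 1650. The seminal fluid signal was thus high in a pair of WtPE arrays, and at the *sei* level in the third. For 10 testis genes the sum ran from 574 in *sei* replicate 5 to 3360 in *sei* replicate 1, and from 624 to 801 in WtPE. Their part in the results below was not tested, and counts without these arrays are given beside the main ones.

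**Figure D1:**
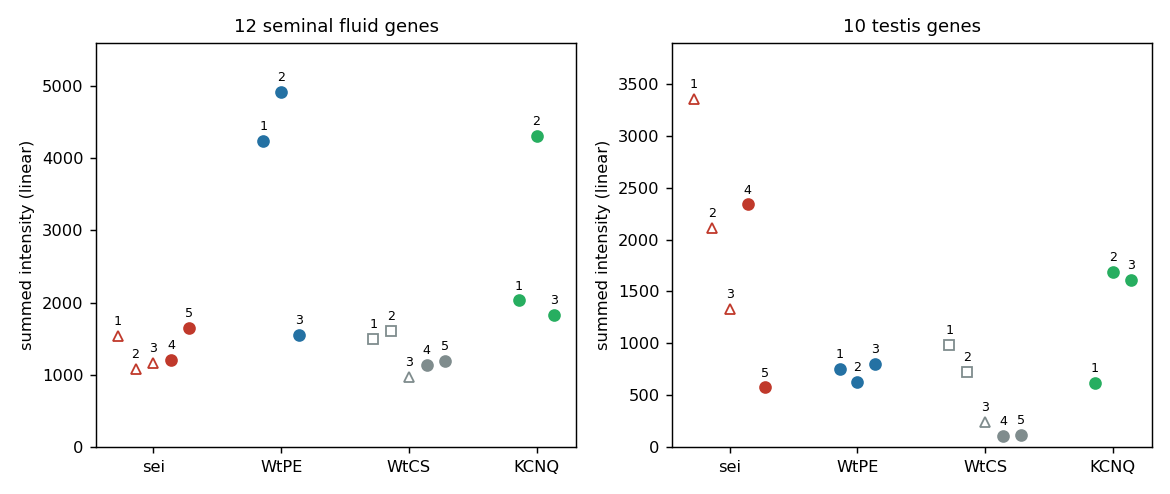
Summed linear intensity of 12 seminal fluid genes (left) and 10 testis genes (right) in each array; the number at each point is the replicate, filled circles are run A, squares run B and triangles run C. WtPE replicates 1 and 2 reach 4240 and 4920 for the seminal fluid genes, and *sei* replicate 1 reaches 3360 for the testis genes.

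Against WtPE, 966 probesets were higher and 905 lower in *sei* hearts (limma, adjusted p below 0.05), which is 5.15% and 4.82% of those tested. The median log2 change over all probesets was 0.02. The called probesets had a median log2 change of 1.29 where they rose and -1.33 where they fell. Of those higher, 832 had all 5 *sei* arrays above all 3 WtPE arrays, and 843 of those lower had all 5 below. The share of all tested probesets with such a gap was not counted, so these counts only describe the calls. The count changed when single arrays were left out. It was 637 without WtPE replicate 1, 727 without WtPE replicate 2 and 1144 without WtPE replicate 3. Without *sei* replicate 1 it was 1222, and without *sei* replicate 2 it was 1144. With WtPE replicate 3 as the only WtPE array, the one low in seminal fluid genes, it was 196. Without both *sei* arrays 1 and 2 it was 707. A fit with fewer arrays can also call less, and this was not separated from the part of the arrays left out. Within run A, which holds 2 *sei* and all WtPE arrays, 1025 probesets were higher and 1339 lower, 1084 of them among the 1871 called with all arrays.

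To find the changes that did not depend on Canton-S, the same probesets were read against WtCS. Both contrasts use the same 5 *sei* arrays, so calls in both are not independent of each other. Against WtCS 2089 probesets were called (11.1%), and WtPE differed from WtCS in 689 (3.67%). Called against both control strains in the same direction were 511 higher (2.72%) and 291 lower (1.55%). Of the rises against WtPE, 52.9% were thus also called against WtCS, and of the falls 32.2%. These are 42.1% of the rises and 33.3% of the falls called against WtCS. Another 19 probesets were called in opposite directions. The remaining 444 rises and 606 falls against WtPE were not called against WtCS, and in 277 and 368 of these the *sei* mean lay within 0.5 log2 of the WtCS mean. The count called against both strains was 307 without WtPE replicate 1, 348 without WtPE replicate 2, 530 without WtPE replicate 3, 449 without *sei* replicate 1, 450 without *sei* replicate 2, 1217 without *sei* replicate 5 and 406 within run A. The count against WtCS was 1321 without *sei* replicate 1 and 1390 without *sei* replicate 2, and that between the control strains 374 without WtPE replicate 1 and 322 without WtPE replicate 2. With WtPE replicate 3 alone the count against both strains was 99, and with *sei* replicates 3 to 5 alone it was 275.

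All 5 *sei* arrays lay above all 8 control arrays in 385 probesets (2.05%) and below them in 310 (1.65%). Of the probesets called against both strains, 270 of the rises and 199 of the falls had such a gap. The 10 probesets in each direction that are described next were taken from these, ranked by the smaller of their changes against the 2 strains. *Obp46a*, a member of the odorant-binding protein family, read 9.86, 10.07, 10.03, 9.33 and 9.39 in *sei* and 2.34, 2.44 and 2.13 in WtPE. Its log2 change was 7.43 ± 0.21 (adjusted p = 2.88e-12), and 7.71 against WtCS. No *sei* array came within several log2 units of a control array. Detection calls were not used here, so for changes to or from readings this low the direction is firmer than the size. *CG9109* read 7.15, 7.29, 6.84, 7.76 and 7.96 in *sei* against 2.76, 2.94 and 3.36 in WtPE, a change of 4.38 ± 0.46 (adjusted p = 2.34e-05).

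*mthl8* encodes a receptor of the methuselah family, and both of its probesets were among the 10 rises. The first read 5.85, 5.88, 6.38, 6.12 and 5.76 in *sei* and 1.60, 1.47 and 1.84 in WtPE (change 4.36 ± 0.21, adjusted p = 5.81e-09). Its groups were far apart, and the second probeset rose by 3.57 ± 0.31. The *KCNQ* mutant hearts, whose control is WtPE, read 5.49, 6.38 and 6.15 on the first probeset, within or just below the range of the *sei* arrays. For the other genes among these rises, no more than 1 of the 3 *KCNQ* arrays lay above all 8 control arrays.

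*Cyp4p1*, a cytochrome P450 enzyme, was already expressed in control hearts. It read 10.26, 10.02, 10.21, 11.25 and 11.17 in *sei* and 6.64, 6.83 and 6.09 in WtPE, and rose by 4.06 ± 0.36 (adjusted p = 3.29e-06). The 2 *sei* arrays of run A were the highest. *lectin-24A*, a C-type lectin, varied more among the mutants, at 6.54, 4.42, 6.01, 8.89 and 8.86 against 3.26, 3.38 and 2.25 in WtPE (change 3.98 ± 0.78, adjusted p = 0.00568). Here too both run A arrays of *sei* stood above the run C arrays, while none overlapped a control. The other rises were *CG4783* (4.21), *CG7330* (3.86), *CG33468* (3.55) and *CG4375* (3.27), all log2 changes against WtPE. In *CG4375* 1 *KCNQ* array, at 4.27, reached the lowest *sei* value of 4.18.

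Among the falls, *CG4259* read 1.31, 1.97, 1.68, 2.41 and 1.69 in *sei* and 8.94, 9.10 and 10.10 in WtPE. Its log2 change was -7.56 ± 0.31 (adjusted p = 6.23e-10), and no *sei* array read above 2.41, so that the size rests on readings as low as those of *Obp46a* in controls. *Zip102B*, a zinc and iron transporter of the ZIP family, read 2.30, 2.28, 2.31, 4.24 and 4.13 in *sei* and 8.26, 8.38 and 8.47 in WtPE, and fell by 5.32 ± 0.47 (adjusted p = 3.67e-06). The run C arrays of *sei* were lower than those of run A, and all lay far below the controls. *Drsl4*, a drosomycin-like peptide gene, read 4.69, 5.29, 4.91, 5.37 and 5.62 in *sei* and 9.22, 9.29 and 10.53 in WtPE, a change of -4.50 ± 0.39 (adjusted p = 2.77e-06).

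*Cyp9b1*, another P450 enzyme, fell by 4.59 ± 0.30, from 8.39, 8.35 and 8.50 in WtPE to between 3.09 and 4.48 in the mutant (adjusted p = 1.51e-07). *Cbl*, the ubiquitin ligase that turns over activated growth factor receptors, read between 3.32 and 4.96 in *sei* and 7.98, 7.99 and 7.90 in WtPE (change -4.02 ± 0.41, adjusted p = 1.62e-05). Its second probeset changed in the same direction, by -1.04 ± 0.48 (adjusted p = 0.195), but was not called, so the 2 probesets differed in size. For *RFeSP*, the Rieske iron-sulphur subunit of complex III, the 2 probesets did not share a direction. The probeset in the list fell by 4.56 ± 0.27, from a WtPE mean of 7.87 to 3.31, while the brighter one gave a mean of 10.67 in *sei* and 9.72 in WtPE, a change of 0.95 ± 0.38 (adjusted p = 0.128). No statement on the *RFeSP* level as a whole follows from the pair.

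*CG33296* had a narrow spread, with 8.33, 8.44, 8.33, 8.06 and 8.09 in *sei* and 11.18, 11.11 and 11.37 in WtPE (change -2.97 ± 0.19, adjusted p = 8.54e-08). *CG14567* (-4.16), *CG7203* (-2.95) and *SmydA-2* (-2.75), a SET and MYND domain gene, completed the 10 falls, with values again against WtPE. Of these 20 probesets only *SmydA-2* was not called within run A (-1.98, adjusted p = 0.074), and all 20 held in the 13 fits that left out 1 array. They were chosen as large changes without overlap, and that choice itself favoured calls that hold. With WtPE replicate 3 as the only WtPE array, *lectin-24A*, *CG4375* and *SmydA-2* lost their calls.

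**Figure D2:**
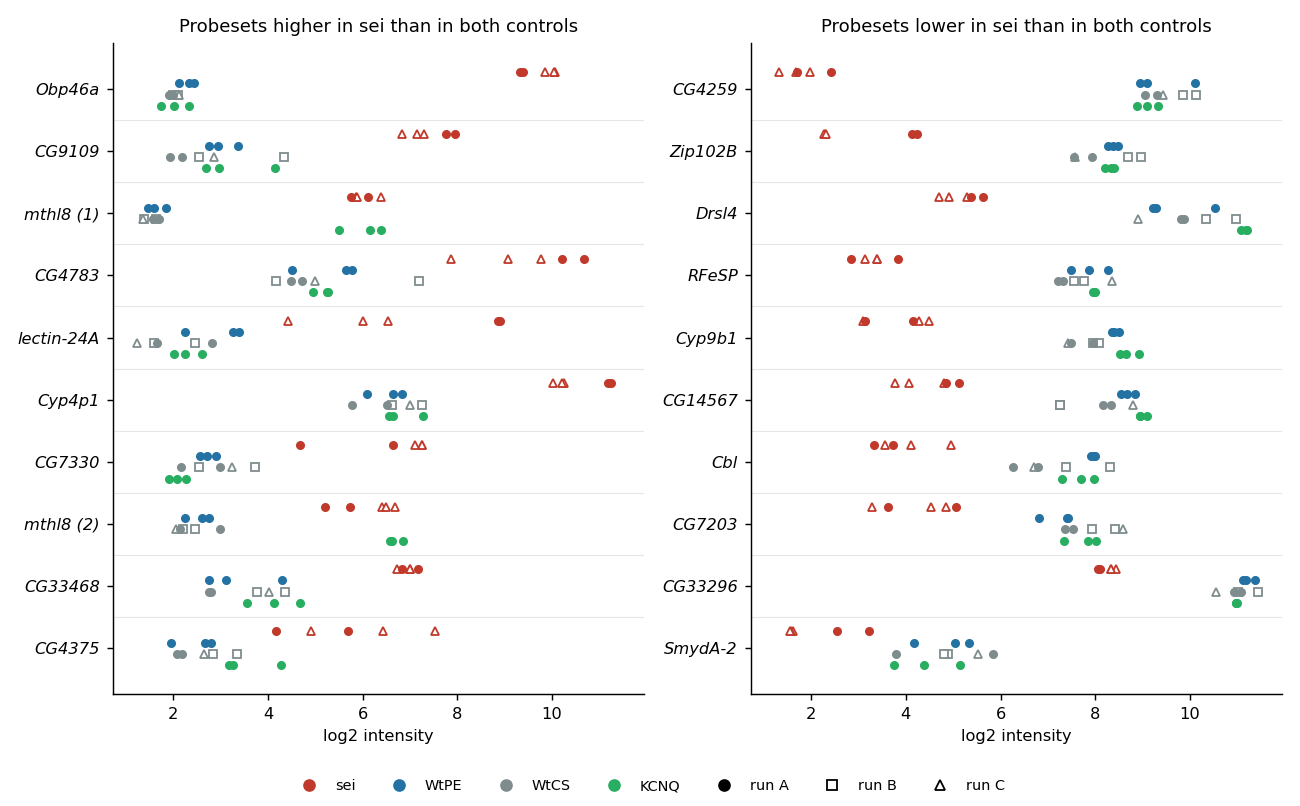
Log2 intensity in every array for the 10 rises (left) and 10 falls (right) in *sei* with the largest smaller change against WtPE and WtCS, taken from probesets without overlap with the 8 control arrays; colours are groups, filled circles run A, squares run B, triangles run C. The lack of overlap was a condition of the choice. All 3 *KCNQ* arrays sit near the *sei* arrays only for the pair of *mthl8* probesets.

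A second class of change against WtPE left *sei* hearts at the WtCS level. *CG1773* read 6.57, 6.03, 6.85, 6.58 and 6.90 in *sei* and 3.04, 2.29 and 2.89 in WtPE, a change of 3.85 ± 0.36 (adjusted p = 6.1e-06). Against WtCS the change was 0.23 (adjusted p = 0.725), and WtPE itself lay 3.61 log2 below WtCS (adjusted p = 1.33e-05). *TwdlE*, a Tweedle cuticle protein, rose by 3.68 ± 0.40 and *Ir76a*, an ionotropic receptor, by 3.44 ± 0.28 in the same manner. *Ect3*, a beta-galactosidase homologue, read between 5.66 and 7.79 in *sei* and 3.15, 3.86 and 3.21 in WtPE, a rise of 3.06 ± 0.44 (adjusted p = 0.000512). The *KCNQ* arrays read 6.51, 6.19 and 6.37 for *Ect3*, so among all 4 groups only WtPE was low. *CG1698* (2.99) and *CG16965* (2.59) were the other rises of this kind.

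Among the falls of this class, *CG43085* read 3.42, 2.62, 2.30, 2.35 and 2.01 in *sei* and 9.03, 8.81 and 10.17 in WtPE (change -6.80 ± 0.41, adjusted p = 6.97e-08). WtPE was 6.58 above WtCS, and the 3 *KCNQ* arrays read 9.07, 8.70 and 9.12, like WtPE. *CG34217* had the same pattern, with a change of -4.14 ± 0.38. In the next 4 falls the WtPE arrays differed more among themselves. *Acp26Aa*, the seminal protein ovulin, read 7.68 and 7.75 in WtPE replicates 1 and 2. It read 2.59 in WtPE replicate 3, inside the *sei* range of 1.49 to 3.99 (change -3.69 ± 1.02, adjusted p = 0.0318). For *Acp98AB* and *Acbp6*, WtPE replicate 3 read 6.12 and 5.40, just above the highest *sei* values of 6.09 and 5.06. The 3 *KCNQ* arrays read 9.55, 6.65 and 8.08 for *Acbp6*. *Spn77Bc*, a serpin, read 8.62, 7.35 and 2.41 in WtPE and between 2.03 and 2.70 in *sei*. *Acp98AB* (-3.88), *Spn77Bc* (-3.66) and *Acbp6* (-3.51), an acyl-CoA-binding protein gene, lost their calls without WtPE replicate 1 and without WtPE replicate 2. *Acp26Aa* lost its call without either of these and without *sei* replicate 2, 3 or 4, and none of the 4 was called within run A.

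**Figure D3:**
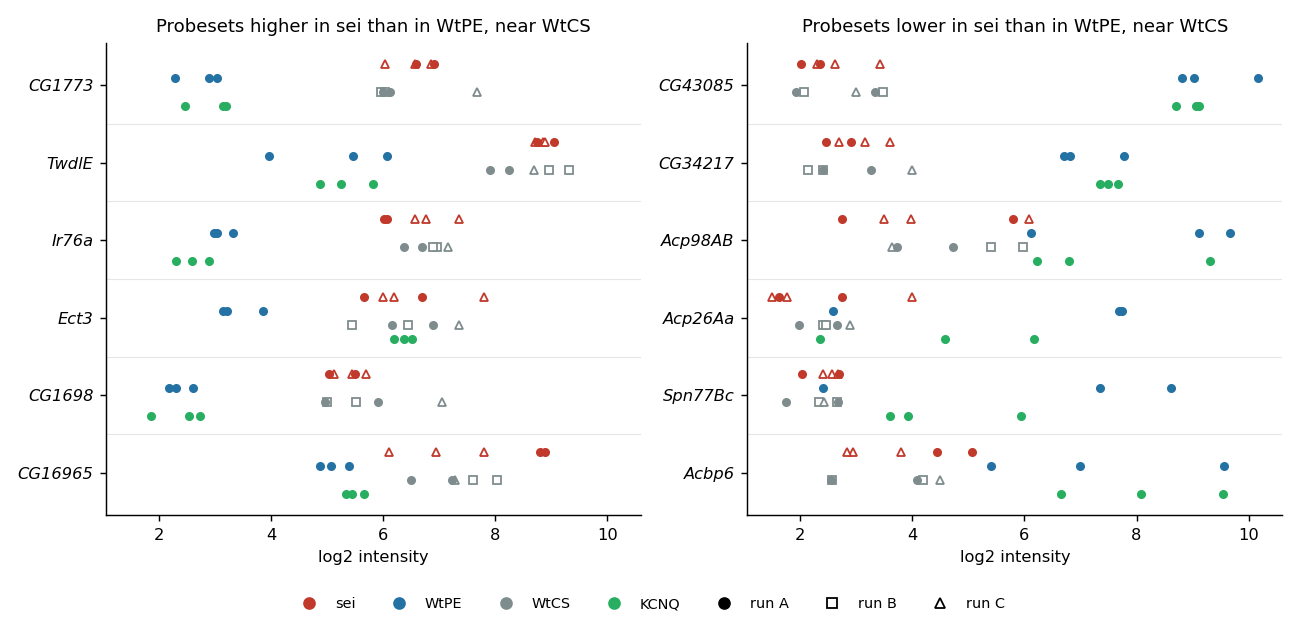
Log2 intensity in every array for the 6 largest rises (left) and falls (right) of *sei* against WtPE that were not called against WtCS and lay within 0.5 log2 of its mean; colours and symbols mark groups and array runs. The *sei* and WtCS arrays share a range in all 12 rows, and in *Acp26Aa* and *Spn77Bc* WtPE replicate 3 lies at the *sei* level.

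In the 19 probesets called in opposite directions *sei* lay between the control strains. *Obp99b*, another odorant-binding protein gene, read 8.27, 8.32, 9.98, 8.55 and 8.79 in *sei*, 6.43, 6.96 and 6.19 in WtPE and between 11.24 and 12.62 in WtCS. It was 2.26 ± 0.47 higher than in WtPE (adjusted p = 0.00763) and 2.76 lower than in WtCS in log2 terms, with no overlap of the 3 groups. *CG42694* was 1.63 ± 0.21 above WtPE and its change against WtCS was -1.85. *CG6012* (1.70) and *CG33458* (1.62) gave the same order, but neither was called within run A. *CG6012* lost its call without *sei* replicate 1, 2 or 3 or any 1 WtPE array. *CG33458*, at an adjusted p of 0.0498, lost it in 10 of the 13 fits, namely without any 1 WtCS array, without *sei* replicate 1, 2 or 3 and without WtPE replicate 1 or 2.

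The gene lists were read with 1 probeset for each gene. Over all 11982 genes, 847 (7.07%) were higher and 697 (5.82%) lower than in WtPE, with a median log2 change of 0.07. Against both strains, 452 (3.77%) were higher and 227 (1.89%) lower. In the 13 fits that left out 1 array, 211 of the rises and 221 of the falls against WtPE kept the call each time. Run A counts of list members below stand beside a general lean to falls within run A. There 1025 of all probesets were higher and 1339 lower. By chromosome arm, 7.25% (2R) to 14.2% (X) of genes were lower and 3.08% (4) to 7.66% (2R) higher. The share over all genes was not counted for run A.

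Of 21 measured potassium channel genes, none was higher and 1 was lower, with a median log2 change of -0.08. The call was that of *Irk3*, an inward rectifier (-1.29 ± 0.28, adjusted p = 0.0097). It read 4.50, 3.92 and 3.00 in WtPE and between 2.31 and 2.86 in *sei*, lost its call without WtPE replicate 1 or 2, and did not differ by the test from WtCS (0.13, adjusted p = 0.815). Among 23 genes of calcium and sodium currents and calcium handling, 1 was higher and 3 lower (median 0.05). *CanA-14F*, a catalytic subunit of the calcium-dependent phosphatase calcineurin, read 3.01, 2.85, 3.48, 3.95 and 3.41 in *sei* and 5.94, 5.76 and 5.27 in WtPE. It fell by 2.32 ± 0.30 (adjusted p = 0.000183), and by 3.29 against WtCS. All *sei* arrays lay below all controls, although a second and dimmer probeset of the gene was not called (-1.13, adjusted p = 0.174).

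The other 3 calcium genes were not called against WtCS. *RyR*, the calcium release channel of the sarcoplasmic reticulum, rose by 0.83 ± 0.24 (adjusted p = 0.0411). *PMCA*, the calcium pump of the plasma membrane, fell by 0.94 ± 0.24 on its brightest probeset, and its other 2 probesets fell too. *CanB2*, a regulatory subunit of calcineurin, fell by 0.56 ± 0.15. All 3 lost the call without WtPE replicate 1 or 2, *RyR* and *CanB2* also without WtPE replicate 3 or *sei* replicate 1, and *RyR* without *sei* replicate 2. None of them was called within run A.

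Both called genes of the sodium pump list of 5 encode beta subunits of the Na+/K+ ATPase, and both were lower than in either control. *nrv1* read 9.72, 9.52, 9.53, 9.88 and 9.86 in *sei* and 10.78, 10.77 and 10.82 in WtPE (change -1.09 ± 0.22, adjusted p = 0.00762), with no overlap. *nrv3*, a neuronal form, fell by 2.03 ± 0.51 (adjusted p = 0.0211). It read 5.53, 6.15, 5.38, 7.06 and 8.01 in *sei*, so that the highest array reached the lowest WtPE value of 7.95, and its call was lost without WtPE replicate 1 and within run A. *ogre*, a gap junction innexin, was the only one called of 7 (-2.24 ± 0.54, adjusted p = 0.018). Its call was lost without WtPE replicate 1 or 2, and within run A it was -3.47 (adjusted p = 0.000559). Against WtCS *ogre* was not called (-0.79).

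Among the structural genes, 2 of 9 thin filament genes were lower and none higher (median -0.40). *tmod*, which caps the pointed ends of actin filaments, read 6.43, 6.77, 6.16, 6.12 and 6.30 in *sei* and 9.15, 8.62 and 8.30 in WtPE (change -2.33 ± 0.52, adjusted p = 0.0116). The groups did not overlap, the call was lost without WtPE replicate 1, and a second, dim probeset was not called (-0.16, adjusted p = 0.874). *TpnC4*, a troponin C best known from flight muscle, fell by 2.87 ± 0.72 (adjusted p = 0.0205) but read 4.70, 5.25 and 8.12 in WtPE, and its call was lost without WtPE replicate 3 and within run A. Of 10 thick filament and titin-like genes, 1 was called, *Mlc-c*, a cytoplasmic myosin light chain (-0.69 ± 0.18, adjusted p = 0.0238). It lost the call without *sei* replicate 2 and without any 1 of the WtPE arrays. Against WtCS none of these 3 genes was called.

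Of 24 genes of Z-discs, formins and adhesion, 3 were higher and 2 lower (median -0.13), but within run A none was higher and 6 were lower. *if* and *mys*, which encode the integrin subunits alphaPS2 and betaPS of muscle attachment, were both lower. *if* read 7.93, 8.47, 7.61, 6.71 and 7.93 in *sei* and at least 9.41 in each WtPE array (change -1.93 ± 0.43, adjusted p = 0.0116). *mys* fell by 1.30 ± 0.32 (adjusted p = 0.0181), as did its second probeset (-1.26). No *sei* array overlapped WtPE for *mys*, and both genes remained called within run A. The call of *if* was lost without WtPE replicate 1, that of *mys* without WtPE replicate 1 or 2, and only *mys* was also called against WtCS (-0.94, adjusted p = 0.036). *form3*, a formin, rose by 1.35 ± 0.27 (adjusted p = 0.00688), but was not called within run A (1.15, adjusted p = 0.0777) or on its second, dim probeset (-0.33). *kon*, a transmembrane proteoglycan of muscle attachment, rose by 1.34 ± 0.40 and lost its call in 9 of the 13 fits, those without WtCS replicate 1, 4 or 5, without *sei* replicate 1, 2 or 3 or without any 1 WtPE array.

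Basement membrane and cardiac matrix genes were higher in *sei* than in WtPE in 5 of 14 cases and lower in 1, with a median log2 change of 0.52. Read against WtCS the median was -0.10, and 1 gene was called in each direction. *loh*, an ADAMTS-like protein that holds the heart's collagen network, read 9.22, 9.04, 8.77, 8.90 and 8.49 in *sei* and 7.36, 7.19 and 7.51 in WtPE (change 1.53 ± 0.26, adjusted p = 0.00224). *Ndg*, nidogen, rose by 1.41 ± 0.29 (adjusted p = 0.00809). Both separated *sei* from WtPE fully, and neither was called against WtCS. *trol*, perlecan, rose by 1.22 ± 0.37 with an adjusted p of 0.0471 and lost its call in 10 of the 13 fits, those without WtCS replicate 2, 4 or 5, without *sei* replicate 1, 2, 3 or 4 or without any 1 WtPE array. Of its 7 other probesets, 1 was called in the same direction. *Ndg* lost its call without WtPE replicate 2. *Col4a1*, a chain of collagen IV (1.13), and *LanB2*, the laminin gamma chain (0.76), were the other rises against WtPE. *Col4a1* lost its call without *sei* replicate 1, 2 or 3 or any 1 WtPE array, and *LanB2* without *sei* replicate 2 or WtPE replicate 2 or 3.

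*wb*, a laminin alpha chain, ran the other way, and of the 14 matrix genes it differed most between the control strains. It read 6.62, 7.22, 7.50, 7.85 and 7.66 in *sei*, 9.05, 8.67 and 9.02 in WtPE, and between 2.96 and 4.46 in WtCS. *sei* hearts were thus 1.54 ± 0.31 below WtPE (adjusted p = 0.00639) and 3.65 above WtCS on the log2 scale (adjusted p = 2.97e-07). The WtPE mean stood 5.19 above that of WtCS. The other 2 probesets of *wb*, both dim, were not called against either strain.

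The Wnt pathway list named 41 genes, of which 20 were measured. *pygo* and *Apc*, which the study names, were not among the 20, since neither had a probeset with a single symbol. Of the 20, 3 were lower, none was higher, and the median log2 change was -0.07. All 3 act on the Wnt ligand outside or on its way out of the cell, and all 3 were also lower than in WtCS. *por*, the acyltransferase that lipidates Wnt proteins, read 6.37, 6.14, 5.93, 6.84 and 6.68 in *sei* and 8.90, 8.77 and 8.91 in WtPE (change -2.47 ± 0.22, adjusted p = 3.75e-06). *wls*, the carrier that brings Wnt to the surface, read 6.62, 6.41, 6.53, 7.15 and 6.87 in *sei* and 8.08, 7.93 and 8.18 in WtPE (change -1.34 ± 0.20, adjusted p = 0.000754). *dlp*, a glypican that binds Wnt, fell by 2.41 ± 0.34 (adjusted p = 0.000389). In all 3 the *sei* arrays lay below every WtPE and WtCS array. The 3 calls held without any 1 array and within run A. The other 17 measured genes did not pass the test.

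Of 17 translation repressors and mRNA 3' end proteins, 3 were lower and none higher, with a median of -0.71. *orb*, a CPEB protein that binds the 3' ends of mRNAs, changed by -2.28 ± 0.68 (adjusted p = 0.0456), *brat*, a repressor that acts with Pumilio, by -2.03 ± 0.50 (adjusted p = 0.0198), and *Sxl*, the master gene of female development, by -1.51 ± 0.46 (adjusted p = 0.047). The other 2 probesets of *Sxl* were not called against WtPE (-0.81 and -1.69). All 3 genes were called against WtCS as well, but none within run A or with run as a covariate. *brat* lost its call without WtPE replicate 1 or 2. *orb* lost it in 8 of the 13 fits, without WtCS replicate 1 or 5, *sei* replicate 1, 2 or 5 or any 1 WtPE array, and *Sxl* in 7, without WtCS replicate 4 or 5, *sei* replicate 1, 2 or 3 or WtPE replicate 1 or 2. *orb* also marks the ovary, whose 18 marker genes summed to between 337 and 2860 in *sei* and between 952 and 1890 in WtPE. *orb* itself was lowest in *sei* replicates 1 and 2, at 3.10 and 3.26, the arrays with the lowest ovary sums. The part of ovary RNA in these values was not tested.

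Receptor tyrosine phosphatases gave 1 rise and 1 fall among 8 genes. *Ptp52F* read 7.62, 8.07, 8.17, 8.48 and 8.21 in *sei* and 6.75, 5.99 and 6.56 in WtPE, a change of 1.68 ± 0.27 (adjusted p = 0.00147) and of 1.39 against WtCS. All *sei* arrays were above all controls. *Ptp10D* fell by 1.60 ± 0.38 (adjusted p = 0.0173), was not called against WtCS, and lost its call without WtPE replicate 1 or 3, and its second, dim probeset gave -0.01 (adjusted p = 0.986).

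**Figure D4:**
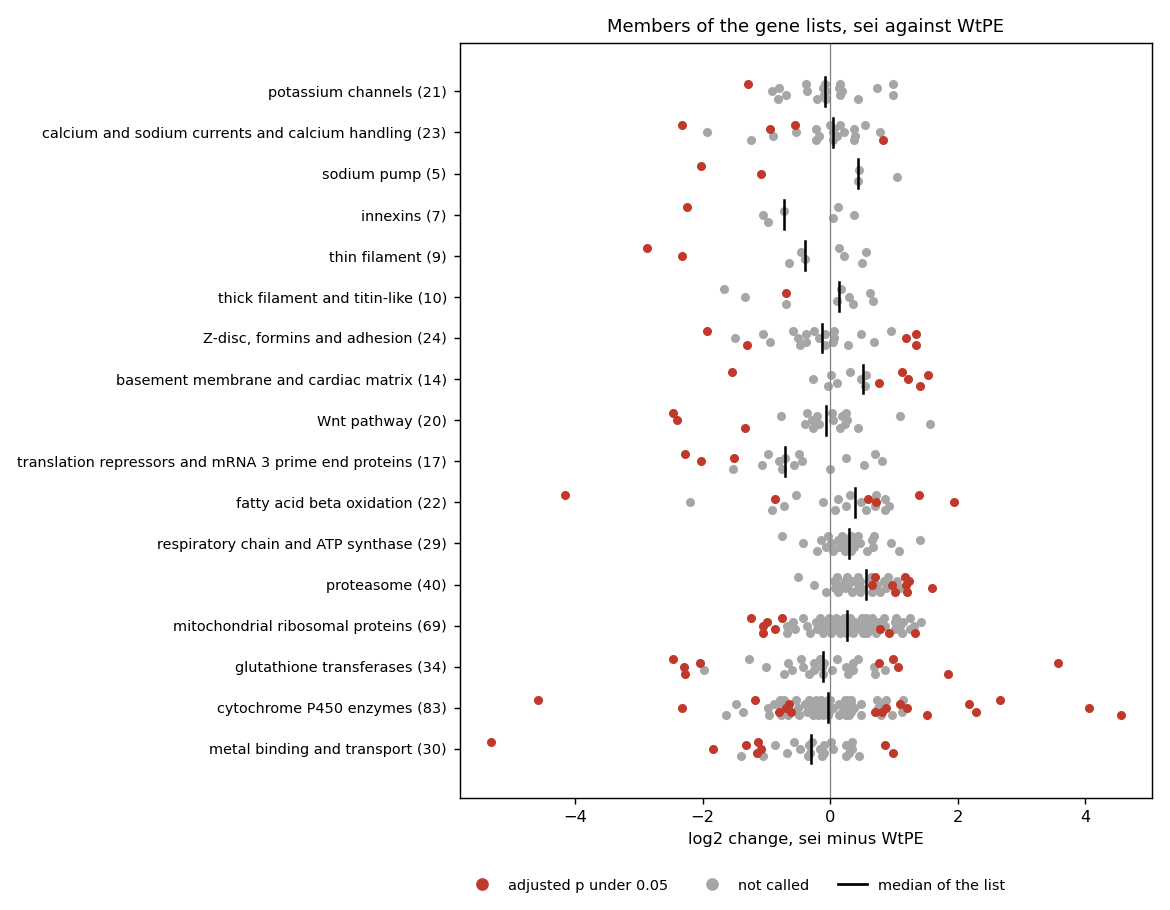
Log2 change of *sei* against WtPE for each member of the 17 gene lists named on the axis (number measured in parentheses); red points have an adjusted p under 0.05, grey points do not, and the bar is the median of the list. Among the lists shown, the medians run from -0.72 for the innexins to 0.56 for the proteasome, and the changes of over 4 log2 units lie among P450 enzymes, metal genes and beta oxidation.

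Metabolic genes moved in both directions. Of 22 genes of fatty acid beta oxidation, 4 were higher and 2 lower (median 0.40), and within run A 3 were higher and 4 lower. *Echs1*, enoyl-CoA hydratase, read 11.18, 11.25, 11.18, 9.95 and 10.15 in *sei* and 8.61, 8.70 and 9.08 in WtPE (change 1.94 ± 0.42, adjusted p = 0.00952). The run C arrays were the highest, yet within run A the change was 1.25 (adjusted p = 0.00531), and the call was lost without WtPE replicate 1. *CG4594*, an enoyl-CoA isomerase family gene, fell by 4.16 ± 0.52 (adjusted p = 0.000129). It read 4.29, 5.40, 4.85, 5.25 and 3.10 in *sei* and 8.68, 8.65 and 8.89 in WtPE. Both genes moved the same way against WtCS. For *Echs1*, WtCS replicate 3, of run C, read 10.55, above both run A arrays of *sei* and below those of run C. The other WtCS arrays read 8.37 to 9.13.

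*CG4592*, of the same enzyme family, rose by 1.39 ± 0.35, but was not called within run A (0.58, adjusted p = 0.0654), and *Acox57D-p*, a peroxisomal oxidase gene, fell by 0.87 ± 0.23. Both lost the call without *sei* replicate 2, WtPE replicate 1 or WtPE replicate 2, and *CG4592* also without *sei* replicate 1. Neither was called against WtCS. Of 27 genes of lipid storage, mobilization and synthesis, 5 were higher and 2 lower (median 0.17). *Snmp1*, a CD36-family membrane protein, read 7.52, 5.98, 7.29, 8.56 and 8.69 in *sei* and 5.35, 5.63 and 4.74 in WtPE (change 2.36 ± 0.48, adjusted p = 0.00739). *Fad2*, a desaturase, fell by 1.23 ± 0.19 (adjusted p = 0.00105). Both groups of arrays were separate for each gene.

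*Apoltp* and *Mtp*, which build and load lipoproteins, rose by 1.15 ± 0.32 and 1.14 ± 0.30, and also rose against WtCS. Both calls were lost without any 1 WtPE array, and that of *Apoltp* also without *sei* replicate 1, 2 or 3 and within run A. None of 29 respiratory chain and ATP synthase genes was called by limma in either direction (median 0.29), although 4 were higher and 2 lower at an unadjusted p below 0.05. Within run A 2 of them were lower. In glycolysis 2 of 17 genes were higher and 1 lower, in the tricarboxylic acid cycle 1 of 15 was higher, and in amino acid breakdown 1 of 18 was lower. None of these 5 calls held in all 13 fits. The 2 glycolysis rises, *Hex-t2* and *Gpdh2*, were dim in controls, with WtPE means of 2.42 and 2.33. Within run A 1 glycolysis gene was higher and 2 were lower, and 4 tricarboxylic acid cycle and 5 amino acid breakdown genes were lower with none higher.

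Detoxification enzymes held some of the largest changes. Of 83 P450 genes, 11 were higher (13.3%) and 7 lower (8.43%), 6 and 3 of them against both strains, and the median was -0.04. *Cyp9c1* read 8.52, 8.74, 8.78, 8.49 and 8.58 in *sei* and 3.71, 4.01 and 4.48 in WtPE (change 4.56 ± 0.30, adjusted p = 1.55e-07). Against WtCS it narrowly missed the call (0.84, adjusted p = 0.0515), although all 5 *sei* arrays lay above the WtCS range of 7.12 to 8.45. WtPE lay 3.71 below WtCS. *Cyp6a20* was called higher against both, by 2.66 ± 0.49 (adjusted p = 0.00392) and 3.31. It read 10.52, 10.44, 10.48, 9.54 and 9.62 in *sei* and 7.24, 7.58 and 7.57 in WtPE.

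Of 34 glutathione transferases, 5 were higher and 4 lower (median -0.12). *GstE1* read 12.10, 11.92, 12.06, 11.26 and 11.07 in *sei* and 7.91, 8.11 and 8.29 in WtPE, a rise of 3.58 ± 0.27 (adjusted p = 7.3e-07) and of 2.54 against WtCS. *GstE7* (-2.46 ± 0.42), *GstO3* (-2.29 ± 0.67) and *GstD3* (-2.27 ± 0.44) fell, and all 4 genes were called against both strains. *GstO3* was lowest in the run A arrays of *sei*, at 6.05 and 4.62, and lost its call without WtCS replicate 4 or 5, *sei* replicate 4 or any 1 WtPE array. Of 35 sugar-conjugating enzymes, 3 were higher and 2 lower. *Ugt36E1* (2.43 ± 0.29) and *Ugt317A1* (2.42 ± 0.29) rose against both strains.

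Of 47 odorant-binding protein genes, which include *Obp46a* and *Obp99b*, 6 were higher and 2 lower. *Obp57a* read 9.15, 9.08, 9.12, 9.17 and 9.38 in *sei* and 3.51, 3.28 and 2.79 in WtPE (change 5.98 ± 0.36, adjusted p = 6.97e-08). In WtCS it was between 9.70 and 10.88, so *sei* lay 1.12 below that strain (adjusted p = 0.031) and WtPE 7.11 below it. *Obp57c* gave the same order, 2.15 ± 0.25 above WtPE and with a change of -0.91 against WtCS.

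The proteasome breaks down ubiquitin-tagged proteins. Of its 40 measured genes, 9 were higher (22.5%) and none lower, 37 had a positive change, and the median was 0.56 beside 0.07 over all genes. Among the 9 were *Rpt3R* and *Prosalpha6T*, a testis form. Both were dim, with WtPE means of 2.60 and 1.76 and *sei* means of 4.20 and 2.96. The part of testis RNA in this list was not tested. *Rpt5*, an ATPase of the proteasome cap, read 10.42, 10.45, 10.45, 9.75 and 9.97 in *sei* and 9.12, 9.15 and 8.76 in WtPE (change 1.20 ± 0.25, adjusted p = 0.0089). *Rpn1*, a scaffold of the cap, rose by 1.24 ± 0.30 (adjusted p = 0.0174). The *sei* arrays were above WtPE throughout for both genes, with the run C arrays highest. Against WtCS the median of the list was 0.22, and 2 of the 9 were called. Within run A 5 genes were higher and 2 lower, and 2 of the 9 calls held in all fits that left out 1 array. *Rpn1* lost its call without WtPE replicate 1 or 3, and *Rpt3R*, a paralogue of a cap ATPase (1.60 ± 0.39), lost it without WtPE replicate 1.

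Ribosomal protein genes were less uniform. Of 41 cytosolic ones, 2 were higher and 2 lower (median -0.20). The rises were those of *RpL10Aa* and *RpL22-like*, both dim in controls, with WtPE means of 2.79 and 2.23. *RpL27* read 9.99, 9.83, 9.94, 11.73 and 11.89 in *sei* and 12.70, 12.70 and 12.64 in WtPE, a fall of 2.00 ± 0.41 (adjusted p = 0.00693). The run C arrays lay lower than the run A arrays, and within run A the change was -0.87 (adjusted p = 0.00741). Of 69 mitochondrial ribosomal proteins, 3 were higher and 6 lower, although 47 had a positive change and the median was 0.27. *mRpL50* (-1.06 ± 0.20) and *mRpL51* (-1.05 ± 0.21) fell in all fits that left out 1 array, but neither was called against WtCS. Within run A 1 of the 69 was higher and 19 were lower.

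The rises among small lists included transcripts of the male germ line. *betaTub85D*, the tubulin of developing sperm, read 7.31, 6.58, 4.51, 6.39 and 3.23 in *sei* and 3.16, 2.11 and 3.25 in WtPE (change 2.76 ± 0.67, adjusted p = 0.0185). *RpL10Aa* (2.56 ± 0.50), a paralogue of a ribosomal protein gene, gave the same order of arrays at its ends, with 6.78 in *sei* replicate 1 and 4.04 in replicate 5, but lay above every control and held in all 13 fits and within run A. *Hsp60C* (2.34 ± 0.59) and *Hsp60B* (2.11 ± 0.56), chaperonins with roles in sperm formation, and *Prosalpha6T* (1.19 ± 0.32), a testis form of a proteasome subunit, were likewise highest in *sei* replicate 1. For *betaTub85D* and *Hsp60C*, *sei* replicate 5 lay within the WtPE range. *betaTub85D*, both chaperonin genes and *Prosalpha6T* lost their calls without WtPE replicate 1 or 2, the latter 3 also without WtPE replicate 3 or *sei* replicate 2, and *Prosalpha6T* without *sei* replicate 4. None of these 4 was called within run A. Among the *sei* arrays, the summed testis signal, which includes *betaTub85D*, was likewise highest in replicate 1 and lowest in replicate 5. Between these ends the order differed for the chaperonin genes. Of 10 testis genes 1 was called, all 10 had a positive change, and the median was 1.31. The seminal fluid genes had 5 of 12 lower, all 12 negative and a median of -2.41 against WtPE but of 0.11 against WtCS. No call of either set held in all 13 fits.

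Metal genes were lower more often than higher, with 6 of 30 lower (20.0%) and 2 higher (median -0.30). Besides *Zip102B*, the metallothioneins *MtnB* and *MtnD*, which bind copper and other metals, were lower than in both strains. *MtnB* read 7.59, 8.38, 6.97, 7.19 and 7.31 in *sei* and 9.11, 8.72 and 10.16 in WtPE (change -1.84 ± 0.40, adjusted p = 0.00946). Against WtCS its change was -3.80, and the call against WtPE was lost without WtPE replicate 3. *MtnD* read 10.15, 10.61, 10.08, 10.44 and 10.06 in *sei* and 11.28, 11.44 and 11.54 in WtPE (change -1.15 ± 0.18, adjusted p = 0.00105). No array of *sei* overlapped a control for either gene. *ZnT77C*, a zinc transporter, fell by 1.32 ± 0.30 and lost its call without WtPE replicate 1 and within run A. It was not called against WtCS.

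Markers of the cells around the heart were examined in the same way. Of 12 hemocyte markers, 3 were lower and none higher (median -0.53). Their summed intensity was 10300 to 11600 in *sei*, 11900 to 12700 in WtPE and 10900 to 12500 in WtCS. *NimC2*, a Nimrod receptor of phagocytes, read 3.17, 3.27, 3.89, 2.14 and 2.29 in *sei* and 6.71, 6.80 and 6.71 in WtPE (change -3.79 ± 0.47, adjusted p = 0.000122). *He*, hemese, read 6.27, 6.29, 6.69, 6.25 and 5.22 in *sei* and 8.84, 8.73 and 9.57 in WtPE (change -2.90 ± 0.44, adjusted p = 0.000874). Both were also lower than in WtCS and held in every fit with 1 array left out. *crq*, a scavenger receptor of hemocytes, changed by -1.16 ± 0.35 (adjusted p = 0.0463) and lost its call in 9 of the 13 fits, those without WtCS replicate 1, 4 or 5, without *sei* replicate 1, 2 or 3 or without any 1 WtPE array. The other 9 markers did not pass the test.

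Lists with few calls completed the survey. Of 36 antimicrobial and recognition genes, 3 were higher and 3 lower. *lectin-21Ca*, a C-type lectin, read 3.07, 3.50 and 2.61 in WtPE and between 1.28 and 1.86 in *sei* (change -1.59 ± 0.27, adjusted p = 0.00191). *lectin-29Ca* (-2.09 ± 0.64) lost its call without any 1 array but WtCS replicate 3 or WtPE replicate 3. Neither was called against WtCS, where the changes were -0.34 and -0.26. Of 77 cuticle protein genes only *Cpr73D* was called with all arrays, whereas 5 were higher and 1 lower within run A and 8 higher and 4 lower with run as a covariate. It read 7.04, 6.47, 7.46, 5.99 and 6.11 in *sei* and 4.74, 4.32 and 2.96 in WtPE (change 2.60 ± 0.51, adjusted p = 0.00569), and rose by 3.36 against WtCS. Of 14 heat shock genes 3 were higher, *Hsp60B*, *Hsp60C* and *Hsp110* (0.66 ± 0.17). Of 8 clock genes *vri*, a repressor of *Clk*, was lower (-1.54 ± 0.38), and of 13 Jonah gut proteases *Jon74E* was higher (1.03 ± 0.28). *vri* lost its call without WtPE replicate 1 or 2. *Hsp110* and *Jon74E* lost theirs without *sei* replicate 1 or 2 or any 1 WtPE array. *Hsp110* also lost it without *sei* replicate 3, and *Jon74E* without *sei* replicate 4. None of these 3 was called against WtCS.

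Of 8 nephrocyte markers 1 was lower, *sns*, the nephrin of the slit diaphragm. It read between 6.27 and 7.11 in *sei* and 8.06, 7.89 and 8.37 in WtPE (change -1.30 ± 0.23, adjusted p = 0.00249), with no overlap, and changed by -0.75 against WtCS. None of 9 fat body markers and none of 5 tracheal markers was called by limma. At an unadjusted p below 0.05, 4 fat body markers and 1 tracheal marker were higher. The fat body sum was 27300 to 40200 in *sei* and 23700 to 27000 in WtPE, without overlap. In WtCS it was 23600 to 38600, which overlapped the *sei* range, and the list included yolk protein genes. For the 5 tracheal markers the sum was 62.4 to 145 in *sei* and 77.3 to 104 in WtPE. Of these markers, 4 had a mean below 5 in each of the 2 groups. The gut list of 10, the flight and body wall muscle list of 6, the list of 8 sex-determination, dosage compensation and yolk protein genes and the ovary list each had 1 gene lower, *Irk3*, *TpnC4*, *Sxl* and *orb* in turn. Of 13 neuronal markers 2 were lower, *nrv3* and *ChAT* (not called without WtPE replicate 3). The neuronal sum was 185 to 451 in *sei* and 400 to 905 in WtPE, and *nrv3* made up much of it in WtPE. The part of these cells in the results was not tested.

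The calls against WtPE were spread unevenly over the chromosomes. On X, 4.54% of 1873 genes were higher and 9.02% lower, the reverse of arm 2R, where 9.02% of 2427 were higher and 4.33% lower. On 2L, 3L and 3R the share higher exceeded the share lower, at 8.03% and 6.26%, 6.95% and 5.55%, and 6.62% and 4.74%. Of 65 genes on chromosome 4, 2 were higher and 9 lower. The calls against both strains showed the same difference, with 1.92% higher and 3.15% lower on X and 4.70% and 1.69% on 2R. Within run A more genes were lower than higher on 2L, 3L and 3R too, and on X 14.2% were lower. The median log2 change of X genes was -0.02, beside 0.07 to 0.12 on the arms of chromosomes 2 and 3. No test was made of the difference between chromosomes.

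**Figure D5:**
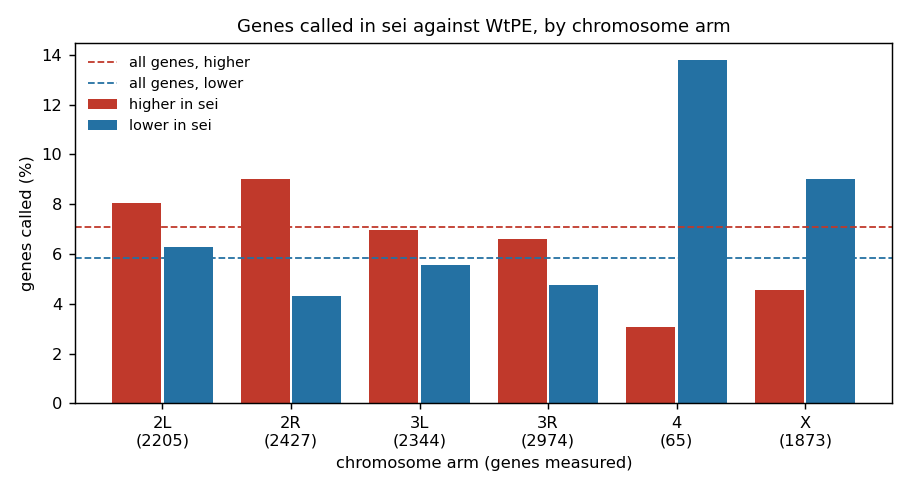
Percent of genes called higher (red) or lower (blue) in *sei* against WtPE on each chromosome arm, with the number of genes measured; dashed lines are the shares over all genes, 7.07% and 5.82%. X and the small chromosome 4 have more genes lower than higher, and the other 4 arms the reverse.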

How the data were processed

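RNA of pooled hearts was measured on Affymetrix Drosophila Genome 2.0 arrays. The authors normalized the arrays by RMA, and the deposited values are linear intensities, 1 for each probeset and array; log2 was taken here. Of 18952 probesets, 183 controls were left out. Platform annotation gave 1 symbol to 13647 probesets, several to 402 and none to 4720; probesets without a single symbol were counted, not named. Probesets of related genes can share probes. All 16 arrays entered 1 limma model (version 3.58.1, R 4.3.3) with a term for each group (12 residual degrees of freedom, prior 3.68), with Benjamini-Hochberg adjustment over 18769 probesets and a threshold of 0.05. Arrays give no count depth, and their number limits the precision.

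Named were *sei*, the 10 largest rises and falls against both strains without overlap with the 8 control arrays (ranked by the smaller of both changes), the 6 largest of each against WtPE not called against WtCS and within 0.5 log2 of it, the 4 largest opposite changes, and up to 4 called members of each gene list. Where a gene had several probesets, the brightest stood for it in the lists. Genes without a probeset of a single symbol were not measured, among them *Mhc*, *Apc* and *pygo*. Lists were therefore read in part, with 9 of 17 thin filament genes measured. Some genes the rule names are not analysed here. The comparison, lists and markers were chosen with earlier results of these data known, and the testis list was split from the seminal fluid list after its values were seen. Array runs were read from array names alone. Replicate numbers were not taken as pairs in the main fit. Alternatives varied normalization, filter, groups in the fit, run, replicate block, averaging of arrays with the same code, the study's thresholds and each array left out.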

Additional observations from a re-analysis of the deposited data

Results flagged for a closer look

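In groups of 5 arrays, 10 of the 238 sets of values looked at (both *sei* and WtCS for each named probeset) had 1 array far from the other 4; about 1 set in 20 is marked so by chance. In *sei*, replicate 4 read 4.68 for *CG7330* where the others read 6.64 to 7.26, replicate 1 read 2.26 for *ChAT* (others 2.71 to 2.87), and replicate 5 read 11.12 for *RpL34a* (others 10.90 to 10.93). The *sei* array that was low for *CG7330* still lay above all control arrays.

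In WtCS, replicate 3 stood apart for 4 genes, at 7.67 for *CG1773* (others 5.97 to 6.12), 12.62 for *Obp99b* (others 11.24 to 11.31), 9.47 for *crq* (others 10.52 to 10.79) and 10.84 for *GstO3* (others 9.36 to 9.77). It is the only WtCS array of run C. Replicate 1 read 7.20 for *CG4783* (others 4.16 to 4.99), replicate 5 read 6.36 for *CG33458* (others 7.03 to 7.29) and replicate 2 read 3.66 for *kon* (others 4.46 to 4.65).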

How the results depend on the processing

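The count called against WtPE (1871) was 3619 with array run as a covariate, 2835 with same-code arrays averaged and 2245 at a fold over 2 with unadjusted p under 0.05. It ranged from 637 to 2525 with 1 array left out. Against WtCS (2089) it was 855 within run A and 1321 to 2674 with 1 array left out. WtPE against WtCS (689) gave 3606 with run as a covariate, 2376 within run A, 1190 with same-code arrays averaged, 1243 at the study's thresholds and 322 to 834 with 1 array left out. The count against both strains (802) was 499 with fewer groups in the fit, 406 within run A, 1357 with same-code arrays averaged and 307 to 1217 with 1 array left out. Chosen after seeing the data were 3 further fits: with run C arrays alone for *sei* the counts against WtPE, WtCS and both were 3545, 3716 and 2071, with WtPE replicate 3 alone 196 against WtPE, 99 against both and 166 between the controls, and with *sei* replicates 3 to 5 alone 707, 810 and 275. The deviations of same-numbered *sei* and WtPE arrays correlated at -0.067, -0.097 and 0.145. Those of *sei* and WtCS correlated at 0.09, 0.034 and 0.527, the last for number 3, where both arrays were of run C. With the replicate block the counts were 2581 against WtPE, 2699 against WtCS, 1156 against both and 728 between controls. Under repeated quantile normalization, a common 75th percentile, a trended robust fit and a mean log2 of at least 5, all 4 counts stayed within 1.5 times; with the last, 273 probesets were higher and 351 lower against both. Direction turned in 2 of the 119 named probesets, *Spn77Bc* (0.06) and *lectin-29Ca* (0.10), both with WtPE replicate 3 alone; of the 118 called, 37 kept sign and call in all of the 25 alternative fits that held them. The causes were not tested.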
